A study of Mus musculus with 6 samples.

Results

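The genes described here fold, inspect, degrade and export the proteins that enter the endoplasmic reticulum (ER), together with the sensors and transcription factors that adjust this machinery to its load. The members were 37 genes taken by symbol, and all 37 were found among the 26187 genes listed for each library. They were sorted by role into 10 chaperones of the BiP cycle, 5 lectin chaperones and disulfide isomerases, 8 stress sensors and transcription factors, 9 genes of ER-associated degradation, and 5 genes of translocation and the COPII coat.

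The RNA came from MC3T3-E1 cells, an established pre-osteoblast line derived from mouse calvaria that deposits a collagen matrix when it differentiates. In the PAKG group (n = 3), the cells received 30 μg/mL of PAKG–8diol–PEG(S) MPs over 2 days; these are small particles of a polyester made from the metabolite α-ketoglutarate, octanediol and polyethylene glycol. In the OC group (n = 3), the cells were kept in the same osteogenic (OC) medium without particles. Both groups therefore shared the β-glycerophosphate and ascorbic acid of that medium, and no particle made of another polymer was sequenced. The study describes triplicate wells for its cell experiments in general, but no source used here ties the sequenced RNA samples to separate wells or cultures, so the p-values rest on the spread among these 6 samples alone, and part of that spread may be technical.

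A secretory cell threads new proteins through the SEC61 channel into the ER, where BiP (Hspa5), its co-chaperones, the calnexin and calreticulin lectins and the protein disulfide isomerases fold them. When unfolded proteins accumulate, the sensors IRE1 (Ern1), PERK (Eif2ak3) and ATF6 start the unfolded protein response: IRE1 splices Xbp1 mRNA, ATF6 is cut in the Golgi to release a transcription factor, and PERK slows translation while favouring ATF4. Osteoblasts secrete much collagen, and the question put to these genes was whether their mRNA differed between cells with and without the particles.

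The sequence elements below are shown because the ER stress element (ERSE) is the promoter sequence through which ATF6 and XBP1 are known to raise chaperone genes, so it gives a split of the members by sequence; the members themselves were chosen with earlier results of these data known. RefSeq promoter windows of 300 bases (250 before and 50 after a start site, GRCm38.p6) were matched for 32 of the 37 members. Atf6, Derl1, Hyou1, Manf and Sec61a1 were not matched. On either strand, an ERSE (CCAAT and CCACG separated by 9 bases of any kind) stood in 39 of all 32851 windows (0.119%) and in a window of 9 of the 32 members (28.1%). The first share counts windows and the second counts genes, which can have more than 1 window, so the 2 shares are not like for like. Capitals mark the fixed letters, positions are counted upstream of the RefSeq start site, and each element is written 5′ to 3′ on the strand on which it reads.
Hspa5 (chr2:34772025-34772043, 47 to 65 bases upstream, strand of the gene): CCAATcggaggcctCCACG
Hsp90b1, far element (chr10:86705638-86705656, 194 to 212 bases upstream, strand of the gene): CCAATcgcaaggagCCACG
Hsp90b1, near element (chr10:86705533-86705551, 89 to 107 bases upstream, other strand): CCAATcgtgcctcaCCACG
Calr (chr8:84847075-84847093, 144 to 162 bases upstream, other strand): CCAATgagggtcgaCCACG
Canx (chr11:50325800-50325818, 127 to 145 bases upstream, strand of the gene): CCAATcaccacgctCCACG
Pdia6 (chr12:17266491-17266509, 80 to 98 bases upstream, strand of the gene): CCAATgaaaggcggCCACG
Dnajc3 (chr14:118937827-118937845, 87 to 105 bases upstream, strand of the gene): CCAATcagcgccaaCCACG
Creld2 (chr15:88819520-88819538, 108 to 126 bases upstream, other strand): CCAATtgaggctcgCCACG
Syvn1 (chr19:6046532-6046550, 26 to 44 bases upstream, strand of the gene): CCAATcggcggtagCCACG
Derl3 (chr10:75893242-75893260, 138 to 156 bases upstream, other strand): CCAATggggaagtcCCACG

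A related element, ERSE-II (ATTGG and CCACG separated by 1 base), stood in 12 windows (0.0365%) and in those of 2 members. These were Herpud1, with ATTGGgCCACG at chr8:94386377-94386387, and Dnajb11, with ATTGGcCCACG at chr16:22857852-22857862, 8 to 18 bases downstream of its start site. The XBP1 element TGACGTGG (0.676% of windows) and the CRE TGACGTCA (1.79%) were in the windows of 0 members, and the ATF4-type element TGATGNAA (3.97%) was in that of 1 member, Herpud1. No such element stood in the windows of Creb3l3, which has 2 RefSeq start sites. A match describes letters only and is not evidence of binding.

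The other sequence that matters for reading these values is the stretch of Xbp1 mRNA that IRE1 cuts out, since it shows what FPKM per gene cannot see. In the first-numbered of its annotated transcripts (GENCODE M21) the 26 bases in capitals are bases 818 to 843, in exon 4 of 5, at chr11:5524282-5524307 on GRCm38, and 3 of the 4 annotated transcripts hold them.
Xbp1: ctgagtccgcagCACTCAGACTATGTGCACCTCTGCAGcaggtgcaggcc
The deposited values sum the spliced and unspliced forms, so they hold the amount of Xbp1 mRNA and say nothing of how much of it was spliced.

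The libraries were similar in depth, at an estimated 32300000 to 41400000 fragments, and mitochondrial genes took 9.53 to 10.71% of FPKM in PAKG and 10.84 to 11.88% in OC. Of 12 pre-osteoblast markers fixed for these cells, 9 were higher and 1 was lower in PAKG (limma, adjusted p under 0.05), beside 5.97% and 8.73% of all genes tested. Sp7, a transcription factor of the osteoblast lineage, rose from 34.1 ± 1.05 to 87.2 ± 3.41 FPKM (SD, n = 3 each), a log2 fold change of 1.35 (limma adjusted p = 7.83e-05). Bglap, which encodes osteocalcin, rose from 0.853 ± 0.176 to 19.3 ± 1.63 FPKM, although it and its near-identical neighbour Bglap2 may share reads. Markers of other cell types were low. Ptprc was at 0 to 0.01 FPKM, and endothelial markers (2 of 6 symbols used here) summed to 0.03 FPKM or less. Epithelial ones summed to 0.75 or less and muscle ones (4 of 5 symbols) to 0.63 to 0.89, of which Des made up most. The summed haematopoietic and macrophage list (7 of 11 symbols used here) was 16.0 to 17.9 FPKM in PAKG and 9.38 to 12.1 in OC, nearly all of it Lyz2, which was called higher (0.64, limma adjusted p = 0.012). In the same list Csf1r was at 0.22 to 0.29 FPKM in PAKG and 0.06 to 0.12 in OC, without overlap, and Spi1 was at 0.07 or less; adipocyte markers summed to 0.07 or less in PAKG and reached 1.5 FPKM in OC replicate 3 alone. The part of these markers in the results below was not tested.

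Set against that background, a smaller share of ER genes than of all genes was called by limma's adjusted p. By the unadjusted p, and by measures given further below, their share was close to that of all genes. Of the 36 members with a mean of at least 0.5 FPKM, 1 was called (limma, adjusted p under 0.05), which is 2.78%, beside 14.7% of the 12590 genes tested across the genome. That gene was Creb3l3, higher in PAKG (5.97% of all genes were called higher), and it was also the 1 member past a 2-fold change, where 1.45% of all genes were. It averaged 0.64 FPKM over the 6 libraries and met the filter only through PAKG, as its OC mean of 0.333 FPKM was below 0.5. With no filter it was called as well (limma adjusted p = 0.016). No member was lower by limma's adjusted p, beside 8.73% of all genes, whereas 9 members had an unadjusted p under 0.05 (25%, against 28.8% of all genes).

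The fitted changes were narrow in range and in error. The median log2 fold change of the members was 0.02, beside −0.03 over all genes tested. Of the members, 21 were above 0 and 15 below, while 44.5% of all genes were above 0. Apart from Creb3l3 at 1.28, members lay between −0.41 and 0.29. The median absolute change was 0.12 for the members and 0.16 for all genes, and the median standard error was 0.086 against 0.111. For 34 of the 36 members the 95% interval lay within a 1.5-fold change in either direction (67.8% of all genes), the exceptions being Atf6 and Creb3l3, and for 35 it lay within 2-fold (91.1% of all genes). Summed, the members made up 0.597 to 0.622% of all FPKM in PAKG and 0.581 to 0.639% in OC.

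**Figure D1:**
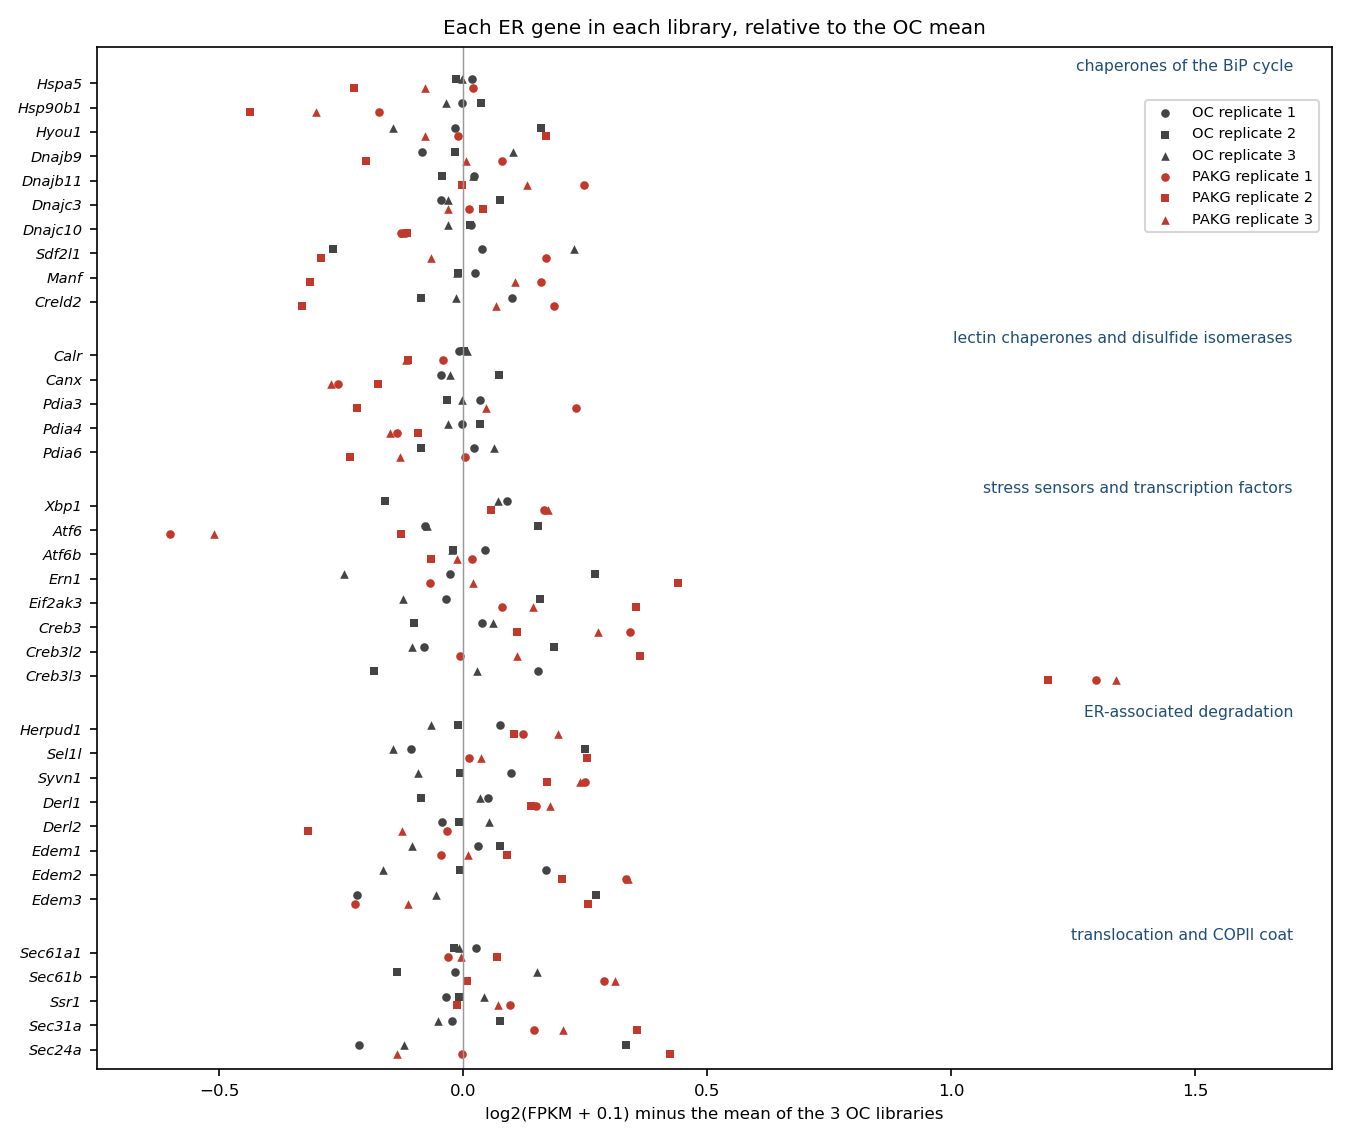
Level of each of the 36 tested ER genes in each library, as log2(FPKM + 0.1) minus the mean of the 3 OC libraries, with OC in grey and PAKG in red and circles, squares and triangles for replicates 1, 2 and 3. Creb3l3 stands apart at the right, with fitted change 1.28, while the other genes lie close to 0 and replicate 2 (squares) is often the highest or lowest library in both groups.

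The libraries carry the numbers 1 to 3 in both groups, and libraries with the same number deviated together (r = 0.192 to 0.430 across genes, which are not independent replicates). With the number as a block, limma called 10 members (27.8%), beside 29.5% of all genes: 7 higher (12.3% of all genes were) and 3 lower (17.1% of all genes were). The higher ones were Creb3l3, Creb3, Eif2ak3, Syvn1, Edem2, Sec61b and Sec31a, and the lower ones Hsp90b1, Canx and Atf6. The share of members called thus lay below that of all genes without the block and close to it with the block. The groups did not overlap for 13 members (36.1%), beside 33.4% of all genes, with PAKG above OC for 7 (13.7% of all genes) and below OC for 6 (19.6% of all genes), and all 3 same-numbered differences pointed the same way for 22 members (61.1%), beside 60.6%.

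None of the 10 chaperones of the BiP cycle was called by limma, beside 14.7% of all genes. Hsp90b1 and Hspa5 were among the most abundant members, and the other 8 lay at 4.05 to 36.3 FPKM on average over the 6 libraries. BiP itself, the ER member of the HSP70 family, was at 168.84, 142.56 and 157.86 FPKM in PAKG and at 168.6, 164.93 and 166.29 FPKM in OC. The OC libraries lay close together and PAKG replicate 1 was level with them, with PAKG replicate 2 lowest. Its log2 fold change was −0.09 (95% interval −0.28 to 0.09, limma adjusted p = 0.495), and with the block the adjusted p was 0.253.

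Hsp90b1, which encodes the ER chaperone GRP94, was at 254.45, 211.85 and 232.63 FPKM in PAKG and at 286.29, 293.99 and 279.77 FPKM in OC. Every PAKG library was below every OC library, and the difference was −0.30 on the log2 scale (SE 0.09). It missed the threshold (limma adjusted p = 0.0555) and passed it with the block (0.0257). It overlaps 1810014B01Rik on the other strand and Gm15344 on the same strand, which averaged 1.8 and 1.4 FPKM; the part of their reads in its values was not tested.

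The remaining BiP partners gave differences on either side of 0. Dnajb11, Dnajb9, Dnajc3 and Dnajc10 encode J-domain proteins that hand clients to BiP or drive its ATPase, and their log2 fold changes were 0.13, −0.04, 0.01 and −0.12. Dnajc10, a reductase, was the only 1 of these 4 whose groups did not overlap, at 34.6 to 34.91 FPKM in PAKG and 37.03 to 38.22 in OC, with a limma adjusted p of 0.22. Hyou1, a large HSP70-like nucleotide exchange factor for BiP, differed by 0.03. Sdf2l1, Manf and Creld2, small ER proteins induced by ER stress in many cells, differed by −0.06, −0.02 and −0.02. Their intervals were the widest of the group, and PAKG replicate 2 was the lowest of the 6 libraries for each of them (7.67, 19.31 and 24.05 FPKM). Manf, which averaged 24 FPKM over the 6 libraries, overlaps Rbm15b on the same strand (7.08 FPKM) and Dcaf1 on the other strand (3.74 FPKM). The part of their reads in its values was not tested. The group's median log2 fold change was −0.03.

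Of the lectin chaperones and disulfide isomerases, 0 of 5 were called, beside 14.7% of all genes, and their median was −0.12. The fitted change was below 0 for 4 of them and above 0 for 1, where 44.5% of all genes were above 0. Canx, the membrane lectin calnexin, was at 107.59, 113.86 and 106.51 FPKM in PAKG and at 124.44, 135.22 and 126.12 FPKM in OC. The groups did not overlap. The difference of −0.23 (SE 0.07) had a limma adjusted p of 0.063 and, with the block, of 0.0121. Calr, its soluble counterpart calreticulin, was at 195.6 to 206.06 FPKM in PAKG and 210.91 to 213.12 in OC, also without overlap, a difference of −0.09 with an interval of −0.24 to 0.06.

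Pdia3, the disulfide isomerase that works with both lectins, was the most abundant member, at 271 ± 41.7 FPKM in PAKG and 265 ± 6.36 in OC (SD, n = 3 each), and differed by 0.02. Its spread in PAKG came from replicates 1 and 2, at 311.59 and 228.26 FPKM. Pdia4 and Pdia6, further isomerases of the ER lumen, differed by −0.13 and −0.12. The Pdia4 groups did not overlap (96.18 to 100.07 against 104.45 to 109.38 FPKM), with a limma adjusted p of 0.229.

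The members that carry an ERSE showed small differences in both directions. The 8 of them that were tested had a median log2 fold change of −0.09 (−0.30 for Hsp90b1 to 0.22 for Syvn1), and the 23 tested members with a matched window and no ERSE had a median of 0.10. The carriers of ERSE-II, Dnajb11 and Herpud1, differed by 0.13 and 0.14. These medians are a description and were not tested.

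**Figure D2:**
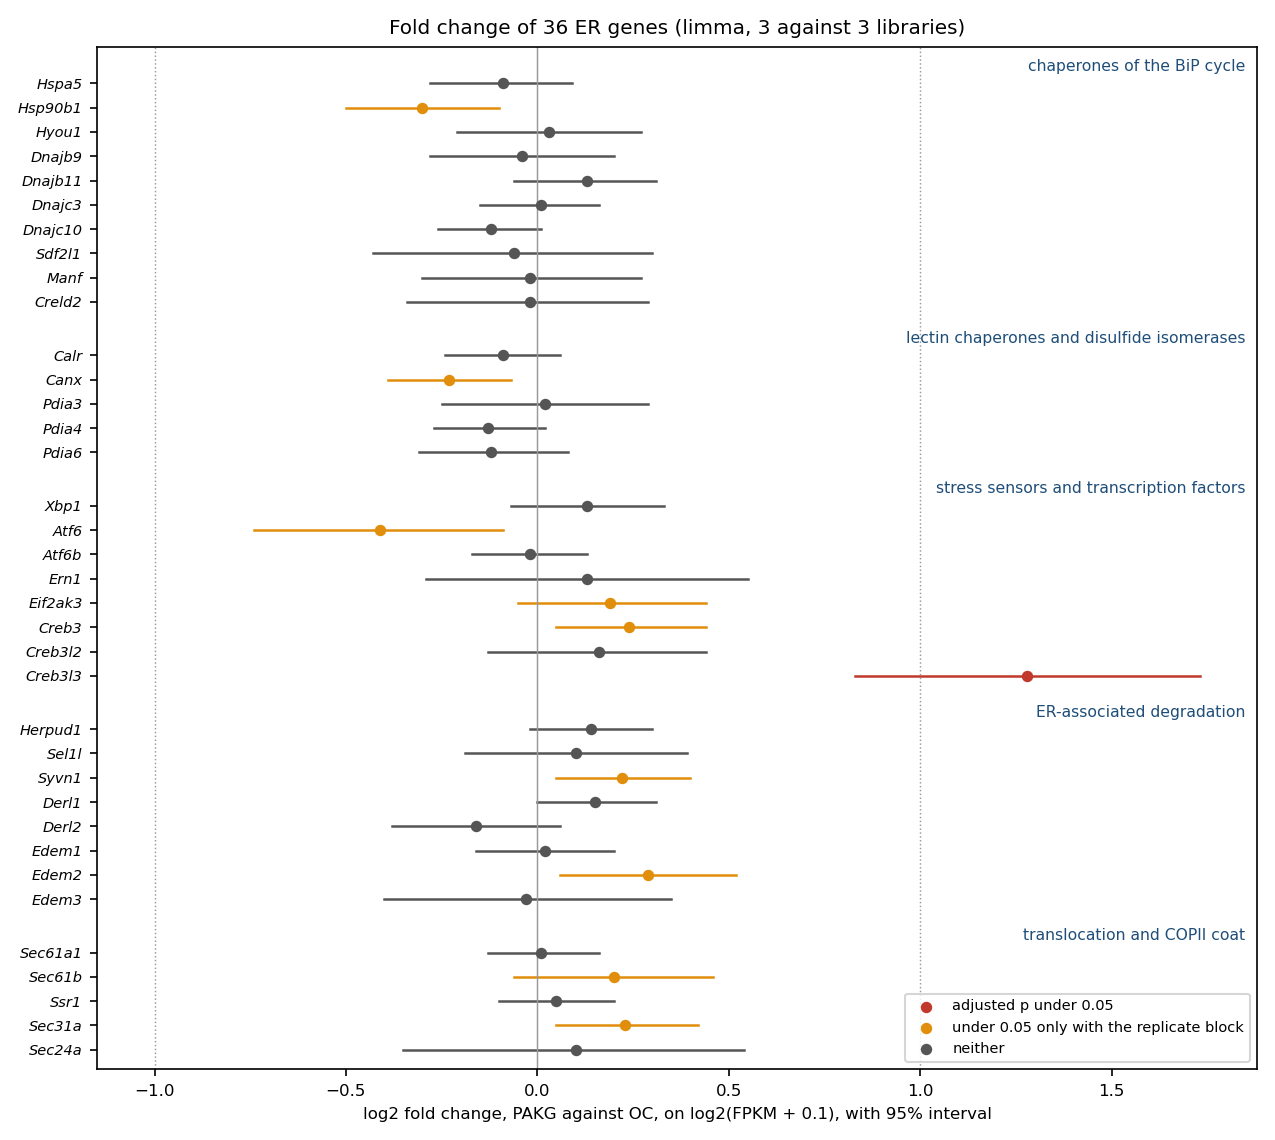
Log2 fold change of each tested ER gene, PAKG against OC on log2(FPKM + 0.1), with its 95% interval from limma, grouped by role. Creb3l3 (red, 1.28) is the gene called without the block, the 9 genes called only with the replicate block are orange, and dotted lines mark a 2-fold change.

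The 8 stress sensors and transcription factors held the largest differences in either direction. Ern1, which encodes the kinase and endonuclease IRE1, was at 1.99, 2.87 and 2.12 FPKM in PAKG and at 2.05, 2.54 and 1.75 FPKM in OC. The groups overlapped, with replicate 2 highest in both. The difference was 0.13 (95% interval −0.29 to 0.55, limma adjusted p = 0.691).

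Xbp1, whose mRNA IRE1 splices at the stretch printed above, was at 32.24, 29.86 and 32.43 FPKM in PAKG and at 30.55, 25.69 and 30.18 FPKM in OC. The lowest PAKG library lay under the highest OC library. Its difference was 0.13 (95% interval −0.07 to 0.33, limma adjusted p = 0.369), and 0.0947 was the adjusted p with the block.

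Eif2ak3, which encodes PERK, was at 9.44, 11.44 and 9.87 FPKM in PAKG and at 8.71, 9.97 and 8.19 FPKM in OC. Replicate 2 was highest in both groups, and each PAKG library was above the OC library of its number by 0.11, 0.20 and 0.27 on the log2 scale. The difference of 0.19 was not called (limma adjusted p = 0.281) and was called with the block (0.0452).

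Atf6, the sensor that becomes a transcription factor once it is cut, was at 3.02, 4.23 and 3.22 FPKM in PAKG and at 4.38, 5.16 and 4.39 FPKM in OC. PAKG replicate 2 came close to the lower OC libraries without reaching them. The difference of −0.41 (SE 0.14), the lowest of all members, had a limma adjusted p of 0.0948, and with the block of 0.0113. Without PAKG replicate 2 it was −0.56 with an adjusted p of 0.0143. Its relative Atf6b lay at 29.49 to 31.24 FPKM in PAKG and 30.36 to 31.84 in OC, a difference of −0.02 with an interval of −0.17 to 0.13.

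Creb3, Creb3l2 and Creb3l3 belong to the CREB3 family, membrane-bound transcription factors that are released by cleavage in the Golgi as ATF6 is. Creb3l3, best known from liver, was at 0.96, 0.89 and 0.99 FPKM in PAKG and at 0.38, 0.28 and 0.34 FPKM in OC. Every PAKG library held more than 2 times the level of the highest OC library, and the log2 fold change was 1.28 (SE 0.19, limma adjusted p = 0.00518, and 0.00714 with the block). The 3 same-numbered differences were 1.14, 1.38 and 1.31.

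The level of Creb3l3 was nevertheless low, the lowest of the tested members, with group means of 0.947 ± 0.0513 and 0.333 ± 0.0503 FPKM (SD, n = 3 each). On its longest transcript of 2294 bases, these values are worth an estimated 91, 70 and 74 fragments in PAKG and 28, 25 and 29 in OC. The gene was called in the fit reported here and in all 14 alternative settings that tested it, the latter with log2 fold changes of 0.55 to 1.49. The lowest of these came from a pseudocount of 1 FPKM and was under 2-fold, and a filter at 1 FPKM removed the gene from the test. Apart from the fit without a filter, all settings that tested the gene kept the filter at 0.5 FPKM, which it met only through PAKG. Their number is therefore not separate support for the call. In GENCODE M21, 0 other annotated genes overlap Creb3l3 (chr10:81084324-81098874).

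Creb3 was at 35.64, 30.35 and 34.05 FPKM in PAKG and at 28.86, 26.21 and 29.34 FPKM in OC. Its groups did not overlap, with PAKG replicate 2 just above OC replicate 3. The difference of 0.24 (SE 0.08) had a limma adjusted p of 0.103, of 0.0137 with the block, of 0.0336 without PAKG replicate 2, and of 0.0274 with each library rescaled to a common total. The gene overlaps Tln1 on the other strand, which averaged 66.4 FPKM and differed by 0.05, and the counting is not stated to have used strand. Creb3l2 was at 8.59 ± 1.16 FPKM in PAKG and 7.69 ± 0.897 in OC (SD, n = 3 each), with overlapping groups and a difference of 0.16.

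The family member best known from bone was measured as well, although it is not among the 37. Creb3l1, known as OASIS and as a regulator of collagen secretion in osteoblasts, was at 108.09, 104.51 and 110.1 FPKM in PAKG and at 49.56, 47.25 and 49.92 FPKM in OC. The replicates of each group lay within a few FPKM of each other and far from the other group. It rose by 1.14 on the log2 scale (SE 0.06, limma adjusted p = 0.000162). Per length, its level in PAKG was above those of Creb3, Creb3l2 and Creb3l3, the ones closest to it being those of Creb3 at 33.3 ± 2.71 FPKM. Mbtps1 and Mbtps2, the Golgi proteases that release these factors, differed by 0.25 and −0.28 and were not called (limma adjusted p = 0.116 and 0.144), but both were called with the block, in these opposite directions.

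**Figure D3:**
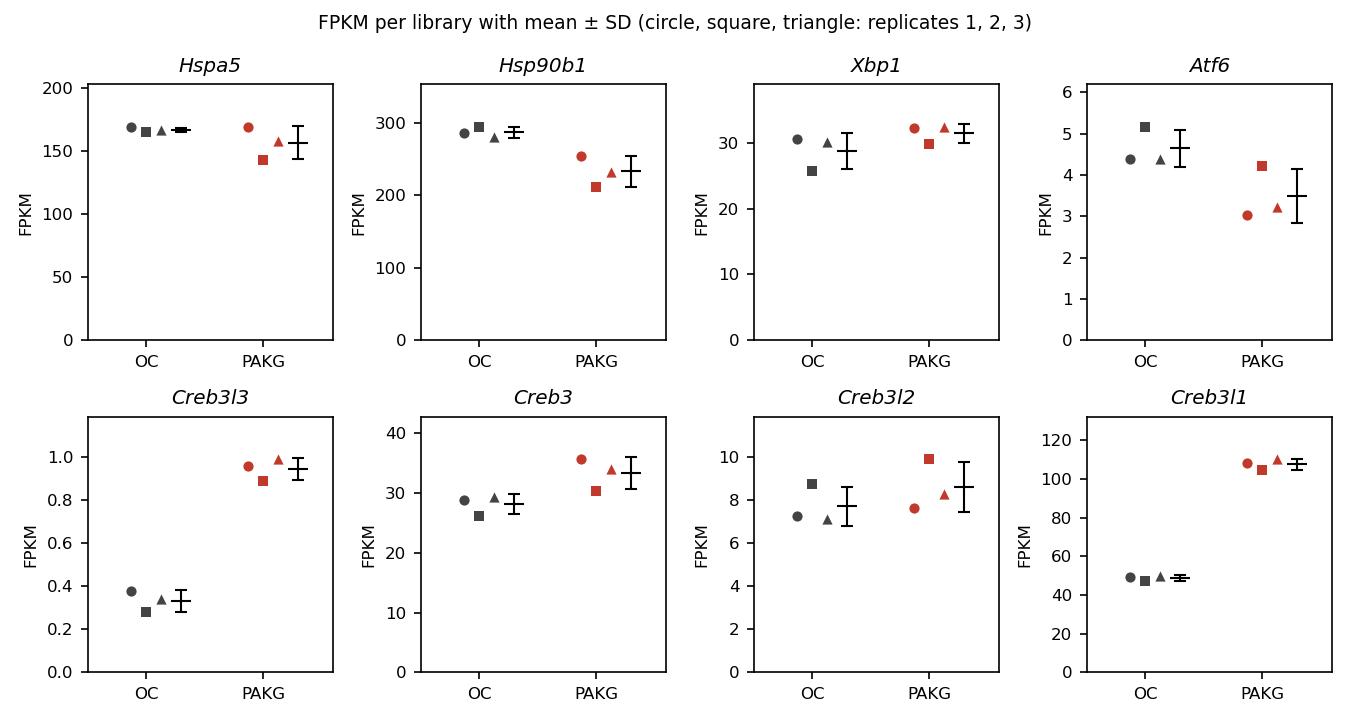
FPKM in each library for BiP (Hspa5), GRP94 (Hsp90b1), Xbp1 and Atf6 and for the CREB3 family, with the mean ± SD of each group (n = 3) beside its points and every axis starting at 0. Creb3l3 (0.947 against 0.333) and Creb3l1 (108 against 48.9) separate widely, Hspa5 and Xbp1 overlap between the groups, and Hsp90b1, Atf6 and Creb3 separate by narrower margins.

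ER-associated degradation returns misfolded proteins to the cytosol for the proteasome. Of its 9 members, Derl3 was listed at 0 to 0.08 FPKM and was not tested. None of the other 8 was called, beside 14.7% of all genes, and their median log2 fold change was 0.12. Syvn1, the ubiquitin ligase HRD1 at the centre of this pathway, was at 12.23, 11.58 and 12.14 FPKM in PAKG and at 11, 10.22 and 9.63 FPKM in OC. Its groups did not overlap, and the difference was 0.22 (SE 0.08, limma adjusted p = 0.0962, and 0.0364 with the block). Mrpl49 overlaps it on the other strand at a mean of 21.6 FPKM and differed by −0.11.

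Edem2, a mannosidase that marks glycoproteins for degradation, was at 8.85, 8.07 and 8.87 FPKM in PAKG and at 7.89, 6.97 and 6.24 FPKM in OC. All PAKG libraries were above all OC libraries, and the difference of 0.29 had a limma adjusted p of 0.0989, or 0.044 with the block. Its relatives Edem1 and Edem3 differed by 0.02 and −0.03 with overlapping groups.

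Herpud1, a scaffold of the HRD1 complex that ER stress strongly induces in many cells, was at 24.47 to 26.05 FPKM in PAKG and 21.76 to 24.01 in OC. The groups stood narrowly apart, and the difference of 0.14 had a limma adjusted p of 0.228. Derl1, a rhomboid-like protein of the membrane channel, differed by 0.15 without overlap (limma adjusted p = 0.172, and 0.0569 with the block), and Sel1l, the partner of HRD1, by 0.10 with overlap. Derl2 differed by −0.16; it overlaps Mis12 on the other strand, which averaged 18.9 FPKM against 5.79 for Derl2 and was lower in PAKG by limma (−0.34, adjusted p = 0.0135).

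Genes of translocation and of the COPII coat, which buds vesicles towards the Golgi, all had fitted changes above 0 (0.01 to 0.23, median 0.10), as 44.5% of all genes did. Of these 5 genes, 0 were called, beside 14.7% of all genes. Sec31a, the outer COPII coat protein, was at 54.17, 62.72 and 56.48 FPKM in PAKG and at 48.23, 51.61 and 47.26 FPKM in OC. The groups did not overlap, with replicate 2 highest in both. The difference of 0.23 had a limma adjusted p of 0.0923, and of 0.0157 with the block. Sec24a, an inner coat protein that selects cargo, was at 3.34 ± 0.724 FPKM in PAKG and 3.12 ± 0.681 in OC (SD, n = 3 each).

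Of the channel itself, Sec61b, the small β subunit, was at 117.69, 96.87 and 119.53 FPKM in PAKG and at 95.27, 87.63 and 107.03 FPKM in OC. The groups overlapped, while each PAKG library was above the OC library of its number, by 0.30, 0.14 and 0.16 on the log2 scale. It was called with the block alone (limma adjusted p = 0.28 without and 0.0343 with it). Sec61a1, which forms the pore, differed by 0.01 with an interval of −0.13 to 0.16, and Ssr1, of the translocon-associated TRAP complex, by 0.05 with an interval of −0.10 to 0.20.

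Replicate 2 stood apart from replicates 1 and 3 for many of these genes. It was the highest library of both groups for 13 members (36.1%, beside 27.5% of all genes), among them Ern1, Eif2ak3, Atf6 and Sec31a, and their longest transcripts had a median of 6077 bases. It was the lowest of both groups for 11 members (30.6%, beside 31.0% of all genes), among them Hspa5, Pdia3, Xbp1 and Sec61b, with a median of 2175 bases. With replicate 2 left out of both groups, 5 members were called, beside 21.9% of all genes. Creb3l3, Creb3 and Sec31a were higher, Canx and Atf6 lower. With PAKG replicate 2 alone left out there were 4, the same members without Sec31a, beside 17.7% of all genes. The part of transcript length in the results was not tested.

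Other genes of the same pathways, chosen by function and not among the 37, were compared in the same fit. For comparison with the counts below, 5.97% of all genes tested were called higher and 8.73% lower by limma. With the block these shares were 12.3% and 17.1%. In these bulk samples, a lower level may reflect less RNA per cell or fewer cells of a type, which cannot be told apart. Of 36 other ER chaperones and folding enzymes tested, 4 were higher and 0 lower by limma, with 14 and 2 under the block, and the list's median log2 fold change was 0.10. Fkbp10, a prolyl isomerase that assists collagen folding, rose from 190.4 ± 12 to 242 ± 8.15 FPKM (0.34, limma adjusted p = 0.0232). Fkbp14, a related isomerase, rose by 0.29 and Rcn3, a calcium-binding protein of the ER lumen, by 0.50 (limma adjusted p = 0.0271 and 0.0311).

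The PERK and ATF4 list showed calls in both directions, with 2 higher and 4 lower of 17 tested (3 and 6 under the block) and a median of −0.07. Atf4 was at 103.59, 90.18 and 106.35 FPKM in PAKG and at 112.77, 93.99 and 102.27 FPKM in OC, with overlapping groups (−0.04, limma adjusted p = 0.825). Ddit3, which encodes the stress factor CHOP, overlapped as well (−0.07, limma adjusted p = 0.816). Asns, asparagine synthetase, fell by 0.47 on the log2 scale, from 52.6 ± 3.05 to 38.0 ± 3.59 FPKM (limma adjusted p = 0.0135), and Chac1, which degrades glutathione, fell by 0.72 (limma adjusted p = 0.0302); both are known ATF4 targets. The promoter windows of 7 genes of this list held TGATGNAA, and the 5 of them that were tested differed in both directions: Asns, Chac1 and Trib3 were called lower (Trib3 at −0.63, limma adjusted p = 0.0472), while Nupr1 and Vldlr were at 0.26 and 0.13 and were not called (limma adjusted p = 0.107 and 0.513). Gadd45a, a growth arrest gene that also answers to DNA damage, rose from 1.94 ± 0.501 to 7.43 ± 1.13 FPKM (1.90, limma adjusted p = 0.00103). The remaining called genes of the list were Ppp1r15a, higher by 0.32, and Sesn2, lower by 0.25 on the log2 scale (limma adjusted p = 0.0308 and 0.0375).

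Further down the secretory route, 22 other ERAD genes had 1 higher and 1 lower (Os9, a lectin that delivers glycoproteins to HRD1, at 0.41, and Rnf139, a ubiquitin ligase, at −0.36; limma adjusted p = 0.0123 and 0.0352), with 2 and 2 under the block. Of 31 genes of the translocon, signal peptidase and oligosaccharyl transferase, 0 were higher and 2 lower, namely Spcs3 and Magt1 (−0.34 and −0.28; limma adjusted p = 0.0186 and 0.0302), with 3 and 4 under the block. Of 40 genes of ER to Golgi transport, limma called 0, beside 4 at an unadjusted p under 0.05 (28.8% of all genes) and 6 higher and 1 lower under the block. Of 12 heat shock genes that serve other compartments, mostly the cytosol but with Hspd1 and Hspe1 of the mitochondria, 0 were higher and 2 lower. The block gave 3 and 6. Hsp90aa1 fell by 0.42 and Hspb8 by 0.33 on the log2 scale (limma adjusted p = 0.00485 and 0.0437). The medians of these 4 lists were −0.03, 0.03, 0.06 and −0.19.

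**Figure D4:**
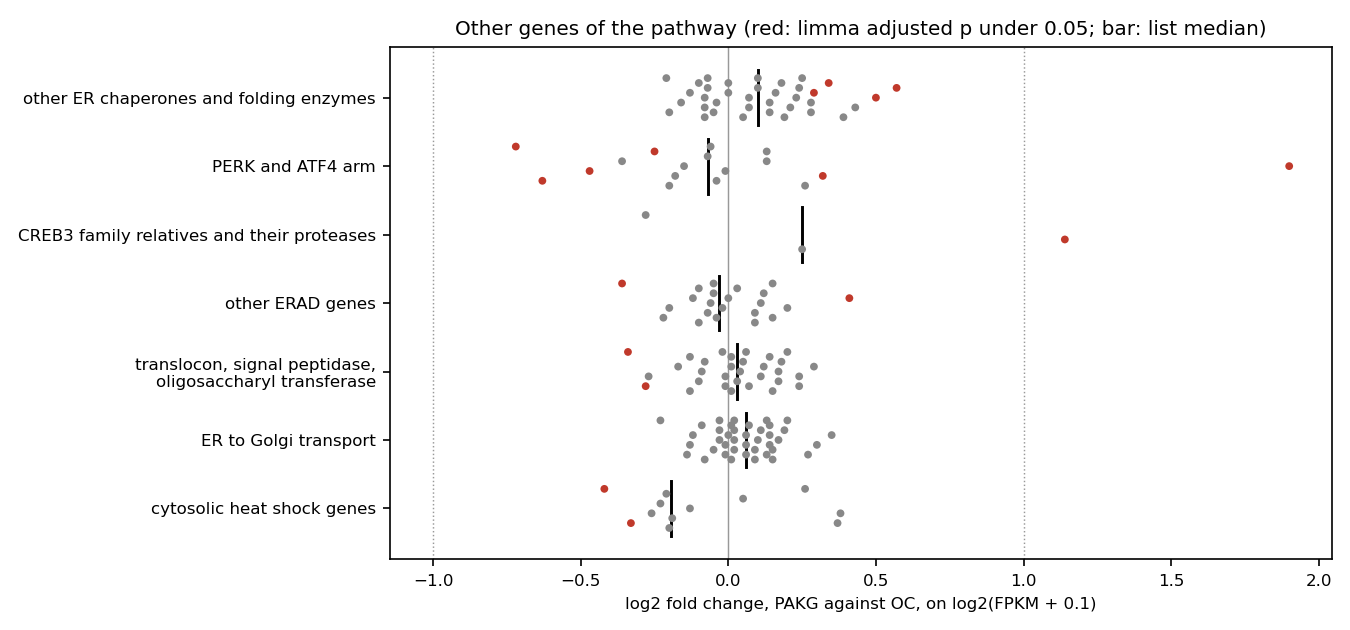
Log2 fold change (PAKG against OC, log2(FPKM + 0.1)) of each tested gene in 7 companion lists, with genes called by limma in red and the list's median as a vertical bar. The heat shock list, labelled cytosolic, also holds the mitochondrial Hspd1 and Hspe1. Most points lie close to 0; Gadd45a (1.90) and Creb3l1 (1.14) are the points beyond the dotted 2-fold line, and red points in the PERK and ATF4 list lie on both sides.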

How the data were processed

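RNA-Seq of 6 MC3T3-E1 libraries (3 PAKG, 3 OC) was used, grouped by the sample labels. For each library the authors deposited FPKM per gene, made by a service provider from poly(A) libraries of a stranded kit; HISAT2, StringTie, cutadapt, FastQC and DESeq2, with the build GRCm38, are named in the submitters' processing notes. Their versions, the annotation release and the strand setting of the counting are not given in the sources. FPKM are not counts, so limma took the place of the count test that the study names. Genes averaging 0.5 FPKM or more (12590) were fitted on log2(FPKM + 0.1) in R 4.3.3 with limma 3.58.1 (lmFit, eBayes with trend, 2-sided, Benjamini-Hochberg over all of them). Fold changes on this scale understate those of low genes. The fit was tested on simulated data with independent noise in each library, whereas the real libraries deviated together by number. That check set no standard for calling changes as small as those of most members. Figures used Python 3.11.15, numpy 2.4.6, pandas 2.3.3 and matplotlib 3.10.9.

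Depth was estimated from the lowest steps of FPKM, where 1 fragment on 1 kb is worth 0.0242 to 0.0310 FPKM. The members and lists were chosen with earlier results of these data known. Values in every library were due for called members and for Hspa5, Xbp1, Atf6, Ern1 and Eif2ak3; of each companion list, up to 3 called genes with the smallest adjusted p were named, and Atf4, Ddit3 and Creb3l1. Other members shown by library, Mbtps1, Mbtps2, Trib3, Ppp1r15a, Sesn2, Nupr1, Vldlr, Csf1r, Spp1 and the overlapping genes were chosen after their values were seen. GENCODE M21, which holds 99.76% of the gene IDs, gave the coordinates.

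The same replicate numbers occur in both groups, with no label saying what they mark. Deviations from the group means correlated at 0.240, 0.430 and 0.192 for the same numbers and at −0.312 to 0.138 for other numbers. All 3 exceeded the minimum of 0.1, so a fit with the number as a block is given beside results whose call it changes. PAKG replicate 3 with OC replicate 1, at 0.138, exceeded that minimum as well, so the rule does not single out the same numbers.

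Alternatives were pseudocounts of 1 and 0.01 FPKM, no filter and a filter at 1 FPKM, a common library total (TPM), median-ratio scaling, no trend, the block, and leaving out each library or replicate 2 of both groups.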

Additional observations from a re-analysis of the deposited data

How the results depend on the processing

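Creb3l3 stayed higher and called in every setting that tested it. Apart from the fit without a filter, these settings kept the filter at 0.5 FPKM, which the gene met only through PAKG. With a filter at 1 FPKM it was not tested, so 0 members were called, 0 were higher and 0 were past 2-fold; a pseudocount of 1 FPKM also left 0 past 2-fold. Rescaling to a common total (TPM) called 2 members, 2 of them higher, and moved the median of the members to 0.07; it also turned the split of all called genes from 751 higher and 1099 lower to 871 and 764, and median-ratio scaling gave 900 and 955. With the replicate block 10 members were called, 7 higher and 3 lower, among 3711 genes in all; the block changed the calls of 9 members and of no other member. Without replicate 2 of both groups 5 members were called, 3 higher and 2 lower, among 2753 genes in all, and the median of the members was 0.08. Leaving out 1 library at a time gave 1 to 4 members called (1 to 2 higher, 0 to 2 lower), the most without PAKG replicate 2, and 827 to 2227 genes in all. The lowest of these, 827, was without PAKG replicate 3; omitting OC replicate 3 gave 872, omitting OC replicate 1 gave 1104 and omitting PAKG replicate 1 gave 1114.

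Creb3l3, the called member, did not change sign in any setting that tested it. Of the members' changes that turned sign without a call, the common total gave Dnajb9 0.01, Manf 0.03, Creld2 0.02, Atf6b 0.03 and Edem3 0.02, and median-ratio scaling gave Manf 0.01, Creld2 0.01, Atf6b 0.01 and Edem3 0.00. Without replicate 2 of both groups, Dnajb9 was at 0.03, Manf at 0.13, Creld2 at 0.08 and Sec61a1 at −0.03. With 1 library left out at a time, the log2 fold change ranged from −0.04 to 0.11 for Hyou1, −0.10 to 0.04 for Dnajb9, −0.02 to 0.04 for Dnajc3, −0.20 to 0.05 for Sdf2l1, −0.10 to 0.13 for Manf, −0.13 to 0.13 for Creld2, −0.08 to 0.14 for Pdia3, −0.04 to 0.00 for Atf6b, −0.02 to 0.27 for Ern1, −0.03 to 0.06 for Edem1, −0.17 to 0.11 for Edem3, −0.02 to 0.03 for Sec61a1 and −0.07 to 0.26 for Sec24a.

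The causes of these shifts were not tested. The number of libraries limits precision for all genes, and Creb3l3 and Derl3 are limited by low values.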
